A study of Mus musculus with 10 samples.

Results

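The response of Trem2-/- microglia to cuprizone was read from 3 of the 10 microarrays of the study: the libraries titled as 4 and 12 weeks on cuprizone, set against the only Trem2-/- control library. Membership follows the titles alone. The Trem2-/- mice were males, labelled C57BL/6 and 8 to 12 weeks old, without functional Trem2 and fed 0.2% cuprizone in the diet. Their control library came from Trem2-/- males of the same age label that received no cuprizone. Trem2-/- microglia were also profiled after 2 further weeks on normal food, following 4 or 12 weeks of cuprizone (1 library each). The WT side holds the same 5 conditions in C57BL/6 males, again with 1 library per condition. Microglia were sorted by flow cytometry. The sources used here do not give the design of the Trem2 allele, the number of mice per library or the sort markers.

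TREM2 is a surface receptor that binds lipids, lipoproteins and debris of dead cells, and it signals through the adaptor DAP12 and the kinase SYK. Cuprizone chelates copper and kills oligodendrocytes, so that microglia must clear lipid-rich myelin debris. In mouse models of brain damage, microglia are known to pass into a disease-associated state (DAM), with an entry step described as independent of Trem2 and a later step of lipid handling and phagocytic genes that depends on it. The comparison asks how much of the response to myelin loss is left in cells without the receptor.

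Trem2 itself stood at a log2 intensity of 7.78 and 7.47 in the 4- and 12-week Trem2-/- libraries and 7.53 in the Trem2-/- control, against 10.81 and 10.70 in the WT cuprizone libraries and 10.72 in the WT control. The genotype labels were therefore borne out in these 6 libraries, and the residual Trem2 signal differed from its control by 0.25 after 4 weeks and -0.06 after 12. The sorted cells carried the markers of microglia in all 3 Trem2-/- libraries. P2ry12, the purine receptor of resting microglia, measured 11.37 and 11.24 on cuprizone against 11.26 in the control, and Cx3cr1, the fractalkine receptor, 12.47 and 12.30 against 12.47.

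Several properties of the libraries bear on every value below. In the order of the submitters' sample numbers, the controls and all 4-week libraries came first and all 12-week libraries after them. These 2 stretches are called the first and second run. A run here means only a stretch of sample numbers, which does not show that its arrays were processed together. Feeding time and run cannot be told apart. Log2 intensities of all probes correlated at 0.983 to 0.991 within a run (21 pairs of arrays) and at 0.974 to 0.983 across runs (24 pairs). The library titled 12 weeks carries a time label of 4 weeks, and it was counted by its title. Neutrophil genes separated the runs: the summed linear intensity of 13 such genes was 5890.0 in the 4-week Trem2-/- library and 1028.3 in the 12-week one, against 8010.5 in the Trem2-/- control. The 12-week WT library had 872.4 against 8440.1 in the WT control, so this gap accompanied the second run in both genotypes.

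With 1 control library per genotype, the difference of a single library from control has no test. A gene was counted as different in a library where its level lay at least 1 away from control on the log2 scale, that is 2-fold. The 4-week Trem2-/- library had 54 of 10792 genes at least 2-fold above control (0.5%) and 6 at least 2-fold below (0.0556%). The 12-week library had 149 above (1.38%) and 106 below (0.982%). Both libraries together shared 12 genes above (0.111%) and 2 below (0.0185%). In WT cells the corresponding counts for both libraries were 116 above (1.07%) and 12 below (0.111%). The spread over all genes was also narrower without Trem2, with an SD of the 4-week differences of 0.265 in Trem2-/- cells and 0.394 in WT cells.

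limma, with the 2 cuprizone libraries as replicates and Benjamini-Hochberg adjustment over all genes, called 0 genes in Trem2-/- cuprizone against control (0%). At an unadjusted p under 0.05 there were 100 genes, and the smallest adjusted p was 0.399. With titled duration as a block, which removes what all 12-week libraries share, limma called 13 genes higher (0.12%) and 0 lower. Counting the library of conflicting labels as 4 weeks in that block left 0 calls.

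The genes that were higher in both libraries included chemokines and interferon-inducible genes of the Ifi200 family. The chemokines are secreted proteins that draw leukocytes, and 3 of the 12 genes were CC chemokines.

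Ccl7, a ligand of CCR2 that draws monocytes, measured 10.56 and 10.36 in the 4- and 12-week Trem2-/- libraries, against 8.46 in the Trem2-/- control. Both cuprizone libraries lay far above the control and close to the WT cuprizone libraries, which had 10.73 and 10.40 against 9.09 in the WT control. The Trem2-/- difference was 2.00 ± 0.25 (SE, 2 libraries against 1; limma adjusted p = 0.399), and 2.12 ± 0.19 with the duration block (limma adjusted p = 0.00808). Ccl8, a related chemokine, stood at 6.52 and 6.21 against 4.37 in Trem2-/- cells, and at 7.19 and 5.81 against 5.61 in WT cells. In the 12-week libraries Ccl8 was thus higher in Trem2-/- than in WT microglia, while its control was 1.23 lower in Trem2-/- cells. Ccl5, which draws T cells and monocytes, measured 8.61 and 8.79 against 6.62 in Trem2-/- cells, and 9.29 and 10.57 against 7.39 in WT cells. The Trem2-/- recovery libraries kept Ccl7 at 10.42 and 10.21 and Ccl8 at 6.81 and 6.70, so neither returned towards the control level after 2 weeks on normal food. Ccl5 was lower than on cuprizone after recovery from 4 weeks, at 7.33, and higher than on cuprizone after recovery from 12 weeks, at 9.75. In the other cuprizone and recovery groups, Ccl5 was on average 2.00 higher at 12 than at 4 weeks. With the duration block its Trem2-/- difference was 1.305 ± 0.559, against 2.08 without it.

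Ifi207 and Ifi213 belong to the Ifi200 family of interferon-inducible proteins, several of which sense DNA. Ifi207 measured 9.01 and 8.73 in the Trem2-/- cuprizone libraries against 6.93 in the Trem2-/- control, and 9.53 and 9.72 against 7.80 in WT cells. Its Trem2-/- difference of 1.94 ± 0.28 (limma adjusted p = 0.566) was 1.86 ± 0.24 with the duration block (limma adjusted p = 0.0355). Ifi213 was dim, with 4.71 and 4.66 against 3.58 in Trem2-/- cells, and so under 5.27, the median of the whole table, in these 3 libraries. The promoters of these 2 genes are shown because both genes were at least 2-fold higher in both libraries and both promoters hold the interferon-stimulated response element as searched, a GAAA repeat with any 2 bases between its copies, on either strand. Capitals mark the match, and each window runs from 250 bases before to 50 bases after the RefSeq start (GRCm38.p6, minus strand, 5′ to 3′), at chr1:173741760-173742059 for Ifi207 and chr1:173599223-173599522 for Ifi213.
Ifi207: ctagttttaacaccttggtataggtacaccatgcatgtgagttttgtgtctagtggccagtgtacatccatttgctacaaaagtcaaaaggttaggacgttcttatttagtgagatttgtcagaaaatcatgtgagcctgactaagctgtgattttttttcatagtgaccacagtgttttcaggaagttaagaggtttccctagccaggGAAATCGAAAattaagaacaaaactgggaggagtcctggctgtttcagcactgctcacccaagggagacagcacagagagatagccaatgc
Ifi213: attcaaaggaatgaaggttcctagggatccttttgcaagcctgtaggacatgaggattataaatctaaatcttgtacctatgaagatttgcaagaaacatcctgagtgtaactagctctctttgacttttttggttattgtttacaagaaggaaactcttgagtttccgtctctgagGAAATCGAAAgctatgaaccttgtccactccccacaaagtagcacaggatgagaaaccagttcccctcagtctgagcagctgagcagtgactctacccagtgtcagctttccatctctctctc
The matched letters were identical in both genes and began at position -41 in Ifi207 and -73 in Ifi213, counted from the start. Of 32851 promoters of this length, 3.44% held the element, as did 2 of the 8 genes among these 14 that had a RefSeq promoter. The AP-1 letters TGANTCA were found in Ctla2a and Ms4a7 (7.81% of all promoters), and the NF-kB consensus in 0 of the 8 (8.46%). The motifs were chosen after the genes were known, and a match in letters is a description only.

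The other members had various roles. Vcam1, an adhesion molecule that binds integrins of leukocytes, measured 7.67 and 8.53 in the Trem2-/- cuprizone libraries against 6.59 in the Trem2-/- control, and 8.36 and 9.17 against 6.98 in WT cells. Ms4a7, a membrane protein of macrophages, stood at 7.41 and 6.96 against 5.83 in Trem2-/- cells, and at 8.46 and 8.23 against 6.17 in WT cells. Both genes were above control in every cuprizone library of either genotype, with lower levels in the Trem2-/- ones. Apoc1, an apolipoprotein of lipid-laden macrophages, measured 5.80 and 5.31 against 4.24 in Trem2-/- cells, and 10.83 and 9.79 against 4.26 in WT cells. Apoc1 thus passed the 2-fold mark without Trem2 while its level stayed far below the WT level at both feeding times. The cathepsin inhibitor Ctla2a (4.61 and 4.70 against 3.06) was near background, and Gm6377 (5.93 and 5.96 against 4.57), AI504432 (6.28 and 6.14 against 5.14) and the growth factor gene Bmp2 (6.33 and 6.16 against 5.15) were dim in Trem2-/- cells.

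The single Trem2-/- control weighs on this group. In 11 of the 12 genes it was lower than the WT control, with a median gap of -0.49, and against both controls 5 of the 12 genes kept a 2-fold difference in both libraries. In WT cuprizone against the WT control, 9 of the 12 were also at least 2-fold higher in both libraries. In the Trem2-/- recovery libraries, 10 of the 12 were at least 2-fold above the Trem2-/- control in both. The same control library had chosen these genes, so this count is partly built into the choice.

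**Figure D1:**
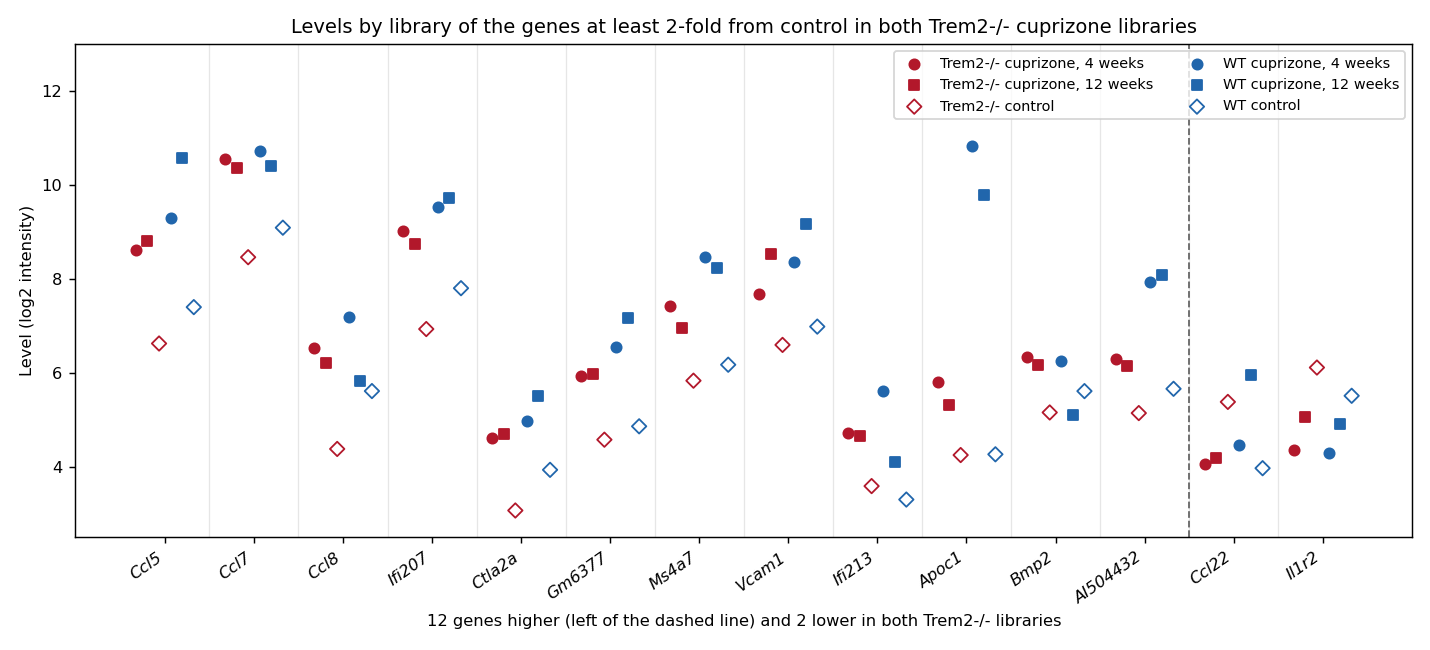
Log2 intensity (vertical axis) of the 12 genes at least 2-fold above and the 2 genes at least 2-fold below control in both Trem2-/- cuprizone libraries, with 1 point per library; red marks Trem2-/- and blue WT, filled points are cuprizone libraries and open diamonds controls. The open red diamond lies below the open blue one in 11 of the 12 genes on the left, and Apoc1 has the widest gap between red and blue filled points.

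The 2 genes lower in both libraries were Il1r2 and Ccl22. Il1r2, the decoy receptor for interleukin-1 that neutrophils also carry, measured 4.34 and 5.04 in the Trem2-/- cuprizone libraries against 6.11 in the Trem2-/- control, and 4.29 and 4.90 against 5.51 in WT cells. Ccl22, a chemokine of dendritic cells that binds CCR4, measured 4.05 and 4.18 against 5.38 in Trem2-/- cells, and 4.45 and 5.94 against 3.96 in WT cells. Il1r2 was lower on cuprizone in both genotypes, whereas Ccl22 was lower in Trem2-/- cells and higher in WT cells. For Ccl22 the Trem2-/- control exceeded every other Trem2-/- library, and against the WT control the Trem2-/- mean difference was 0.15. Neither passed limma (adjusted p = 0.999 for each in Trem2-/- cuprizone against control).

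What remained of the WT response was followed through the 116 genes that were at least 2-fold higher in both WT cuprizone libraries. Their median difference was 0.38 in Trem2-/- cells, at 0.36 after 4 weeks and 0.35 after 12, against 1.78 in WT cells. The WT values chose these genes, so a smaller Trem2-/- difference is partly built into the choice, and the WT and Trem2-/- differences rest on separate controls. In the Trem2-/- libraries 9 of the 116 (7.76%) were at least 2-fold higher in both, 71 were above control in both and 11 below control in both. Over all genes tested, 3381 of 10792 were above control in both Trem2-/- libraries. In 15 of the 116 the Trem2-/- mean made up the larger part of the WT mean. With the duration block the Trem2-/- median was 0.20.

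Set side by side without either control, 115 of the 116 genes were lower in the 4-week Trem2-/- library than in the 4-week WT library, and 116 of 116 at 12 weeks. The median gaps were -1.44 at 4 weeks and -1.41 at 12 weeks, while the controls of the 2 genotypes differed by -0.03 in the median. Over all genes tested the same gaps were -0.02 and 0.01, with 5772 and 5214 of 10792 lower in Trem2-/-. The 116 genes were chosen for high values in these same WT cuprizone libraries. Lower Trem2-/- levels are thus partly built into their counts and gaps, which does not hold for all genes tested.

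**Figure D2:**
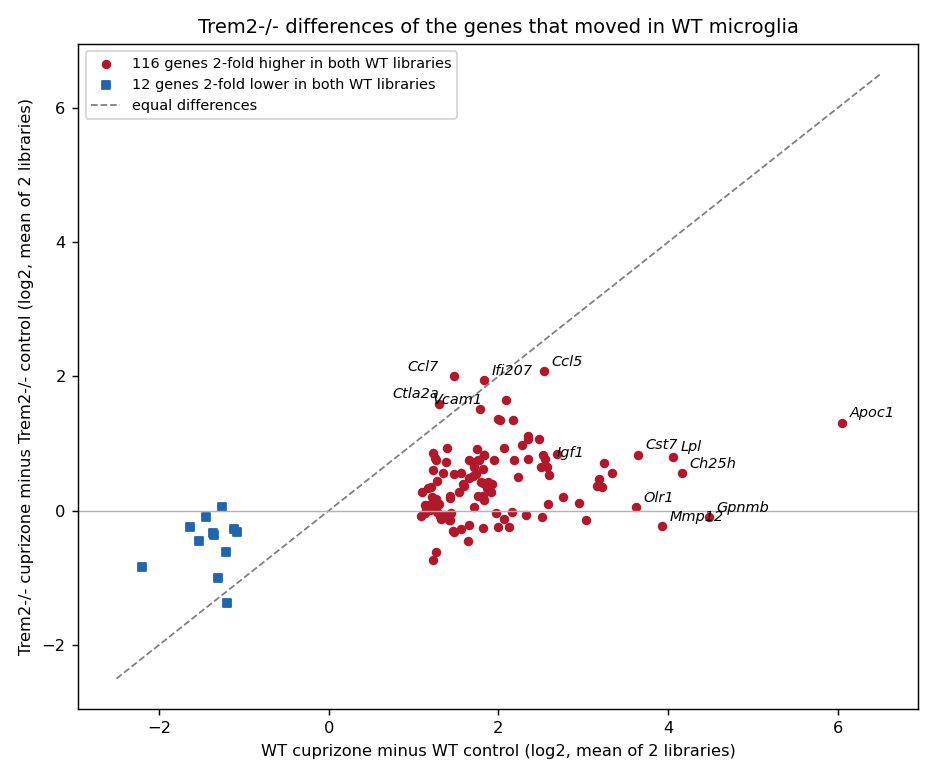
Mean log2 difference of the Trem2-/- cuprizone libraries from the Trem2-/- control (vertical axis) against that of the WT libraries from the WT control (horizontal axis), for the 116 genes 2-fold higher (red circles) and the 12 genes 2-fold lower (blue squares) in both WT libraries; the dashed line marks equal differences. Of the red points, 113 lie below the line, with Ccl7, Ifi207 and Ctla2a above it and Gpnmb and Mmp12 near 0.

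The WT-induced genes with the largest differences in both Trem2-/- libraries included the chemokine and interferon-inducible genes above. Ccl7 differed from control by 2.00 in Trem2-/- and 1.48 in WT cells, and Ifi207 by 1.94 in Trem2-/- and 1.83 in WT cells. Ctla2a differed by 1.59 and 1.30, Ccl5 by 2.08 and 2.54, and Vcam1 by 1.51 and 1.78, each in Trem2-/- and WT cells in that order. None of these 5 showed a genotype difference of the response that passed limma (adjusted p = 1 for each).

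The genes with large WT responses mostly had small differences in Trem2-/- cells. Gpnmb, which encodes a membrane glycoprotein of lipid-filled phagocytes, measured 4.57 and 4.52 in the Trem2-/- cuprizone libraries against 4.64 in the Trem2-/- control, and 8.62 and 7.99 against 3.83 in WT cells. The difference between the genotype responses was -4.57 ± 0.43 (limma adjusted p = 0.0451), the only 1 of 10792 genes called in that test (0.00927%), with 159 at an unadjusted p under 0.05. The call rested on the full set of libraries: leaving out 1 library at a time gave limma adjusted p-values of 0.0315 to 0.401, with the difference between -4.89 and -4.26. Gpnmb was below the table's median in the controls and in the Trem2-/- cuprizone libraries, and with log2(intensity + 32) its difference was -2.96 (limma adjusted p = 0.306). Mmp12, a macrophage elastase, measured 4.83 and 5.02 against 5.16 in Trem2-/- cells and 8.90 and 8.89 against 4.96 in WT cells. Olr1, a receptor for oxidised lipoprotein, measured 3.65 and 4.02 against 3.78 in Trem2-/- cells and 7.21 and 7.88 against 3.92 in WT cells. For all 3 genes the Trem2-/- cuprizone libraries stayed at or near the level of the Trem2-/- control, close to background.

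Other genes of this kind kept a small part. Ch25h, which makes 25-hydroxycholesterol, differed by 0.56 in Trem2-/- and 4.16 in WT cells. Lpl, the lipase that frees fatty acids from lipoproteins, measured 5.57 and 5.53 in the Trem2-/- cuprizone libraries against 4.75 in the Trem2-/- control, and 9.86 and 9.24 against 5.49 in WT cells. Cst7, a cathepsin inhibitor and DAM marker, measured 7.76 and 6.66 against 6.37 in Trem2-/- cells, and 10.98 and 9.92 against 6.81 in WT cells. Igf1, a growth factor for oligodendrocytes, measured 6.37 and 5.07 against 5.004 in Trem2-/- cells, and 8.91 and 8.51 against 5.46 in WT cells. Cst7 and Igf1 were thus at least 2-fold above control in the 4-week Trem2-/- library, and 0.28 and 0.07 above it in the 12-week one. The apoptotic-cell receptor Axl (0.35 in Trem2-/- and 3.22 in WT cells), the β-glucan receptor Clec7a (0.36 and 3.17), the integrin Itgax (0.56 and 3.34), the osteoclast-type proton pump subunit Atp6v0d2 (0.47 and 3.19), the matrix protein Postn (-0.14 and 3.03), the oxygen sensor Egln3 (0.11 and 2.96) and the kinase Fam20c (0.09 and 2.59) had small Trem2-/- values too. With titled duration as a block, limma called 9 genes in the difference between the responses, among them Gpnmb, Mmp12, Olr1, Apoc1, Axl, Egln3 and Fam20c. Counting the library of conflicting labels as 4 weeks in that block left 1 call, Gpnmb, with limma adjusted p-values of 0.0819 for Mmp12 and Olr1, 0.128 for Apoc1 and 0.137 for Axl.

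The 12 genes that were at least 2-fold lower in both WT libraries had a median of -0.35 in Trem2-/- cells, against -1.33 in WT cells. Of these, 11 were below control in both Trem2-/- libraries, against 2918 of 10792 genes tested, and 0 were 2-fold below in both. The WT values chose these 12 genes, so a smaller Trem2-/- difference is partly built into the choice.

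The 4-week libraries allow the same reading within 1 run, since both controls lie in it; this restriction was chosen after seeing the data. Of the 222 genes at least 2-fold above control in the 4-week WT library, 45 (20.3%) were at least 2-fold above control in the 4-week Trem2-/- library, against 0.5% of all genes. Their median was 0.40 in Trem2-/- and 1.40 in WT cells. Of the 222, 176 were above the Trem2-/- control, against 5888 of 10792 genes tested. The 4-week WT values chose these 222 genes, so a smaller Trem2-/- difference is partly built into the choice. Of the 54 genes 2-fold higher in the 4-week Trem2-/- library, 9 had not reached 2-fold in the 4-week WT library.

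Gene lists of microglial states were read in the same way. The DAM entry genes had medians of 0.14 and -0.11 in the 4- and 12-week Trem2-/- libraries and 0.30 and 0.14 in the WT libraries (8 genes, 0 called by limma). At matched feeding times 8 of 8 at 4 weeks and 7 of 8 at 12 weeks were lower in Trem2-/- than in WT cells, with median gaps of -0.23 and -0.31. Within them Apoe, the main lipoprotein of the brain, measured 11.79 and 11.14 in the Trem2-/- cuprizone libraries against 10.36 in the Trem2-/- control, and 12.997 and 12.92 against 10.62 in WT cells. Lyz2, lysozyme, was 0.88 above control at 4 weeks and 0.49 below it at 12 weeks in Trem2-/- cells. The 26 later DAM genes had medians of 0.21 and 0.16 in Trem2-/- and 2.27 and 2.19 in WT cells. Of these genes, 1 was 2-fold higher in both Trem2-/- libraries (Apoc1) and 16 in both WT libraries. At matched feeding times 26 of 26 were lower in Trem2-/- than in WT cells, at 4 weeks and at 12, with median gaps of -2.13 and -2.06. The immunoglobulin-like receptor Lilrb4a kept more than most, with 8.42 and 8.77 in the Trem2-/- cuprizone libraries against 7.84 in the Trem2-/- control, and 10.17 and 10.18 against 8.22 in WT cells.

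Homeostatic microglia genes were nearly level in the 4-week Trem2-/- library, with a median of -0.02, and lower in the 12-week library, at -0.25, against -0.34 and -0.62 in WT cells (31 genes, 0 called). Between the 4-week cuprizone libraries 31 of 31 were higher in Trem2-/- than in WT cells, by 0.27 in the median, while the controls differed by -0.05. At 12 weeks 28 of 31 were higher, by 0.25. Members with the lowest Trem2-/- means were Abi3, a regulator of the actin cytoskeleton (9.76 and 8.45 on cuprizone against 9.86 in the Trem2-/- control), the lens crystallin Crybb1 (9.84 and 9.63 against 10.29), the fructose transporter Slc2a5 (9.51 and 9.11 against 9.75) and the transcription factor Sall1 (10.58 and 9.87 against 10.60). Abi3 and Sall1 differed from control mainly in the 12-week library. The other 12-week libraries were lower for both genes as well: after 12 weeks of cuprizone and recovery, Trem2-/- microglia had 8.57 for Abi3 and 9.63 for Sall1, and WT cuprizone microglia had 8.53 and 9.62.

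The TREM2 signalling partners, which include adaptors and kinases downstream of the receptor, had medians of 0.09 and -0.10 in Trem2-/- cells and 0.01 and -0.38 in WT cells (12 genes, 0 of them 2-fold different in either Trem2-/- library). Genes of glycolysis and hypoxia had medians of -0.14 and -0.02 in Trem2-/- cells and 0.43 and 0.51 in WT cells. Pgk1, a glycolytic enzyme, measured 8.29 and 8.58 in the Trem2-/- cuprizone libraries against 8.09 in the Trem2-/- control, and 9.09 and 9.40 against 8.04 in WT cells. At matched feeding times 18 of 19 of these genes at 4 weeks and 16 of 19 at 12 weeks were lower in Trem2-/- cells. The glycolytic enzyme gene Aldoc, also a gene of astrocytes, had the lowest Trem2-/- mean of the list, 1.01 below control on the log2 scale. Lipoprotein and cholesterol efflux genes had medians of 0.21 and -0.06 in Trem2-/- cells and 0.61 and 0.26 in WT cells. The scavenger receptors Cd36 and Msr1 were the members with the largest Trem2-/- means beside Apoc1 and Apoe: Cd36 measured 6.79 and 6.06 against 5.17, and Msr1 6.38 and 6.15 against 5.43. Cd36 passed limma with the duration block (1.65 ± 0.24, adjusted p = 0.0484).

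Chemokine lists had higher Trem2-/- medians. CC chemokines had medians of 0.46 and 0.34 in Trem2-/- cells and 0.50 and 0.30 in WT cells (14 genes, 10 above control in both Trem2-/- libraries, 0 called). CXC chemokines had medians of 0.76 and 0.66 in Trem2-/- cells and 1.17 and 1.13 in WT cells (9 genes, 6 above control in both, 0 called). All genes tested had medians of 0.022 and -0.002 in the Trem2-/- libraries, and 31.3% of them were above control in both. The Trem2-/- control was 0.20 below the WT control in the median of the CC list and 0.15 below in the CXC list. Against the WT control the 4- and 12-week Trem2-/- medians were 0.30 and 0.17 for CC chemokines, and 0.37 and 0.76 for CXC chemokines. Cxcl2, which draws neutrophils, measured 9.65 and 10.61 in the Trem2-/- cuprizone libraries against 8.78 in the Trem2-/- control, and 10.58 and 11.31 against 8.92 in WT cells. Cxcl1, which acts on the same receptor, measured 7.87 and 8.14 against 6.92 in Trem2-/- cells and 7.48 and 8.39 against 6.77 in WT cells. Cxcl10, an interferon-induced chemokine, stood at 8.98 and 10.76 against 8.23 in Trem2-/- cells, with its largest step in the 12-week library. In the other cuprizone and recovery groups, Cxcl10 was on average 2.16 higher at 12 than at 4 weeks. The interferon response list as a whole had medians of 0.17 and -0.08 in Trem2-/- cells and 0.78 and 0.51 in WT cells, and 25 of 27 members at 4 weeks and 21 at 12 weeks were lower in Trem2-/- than in WT cells.

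**Figure D3:**
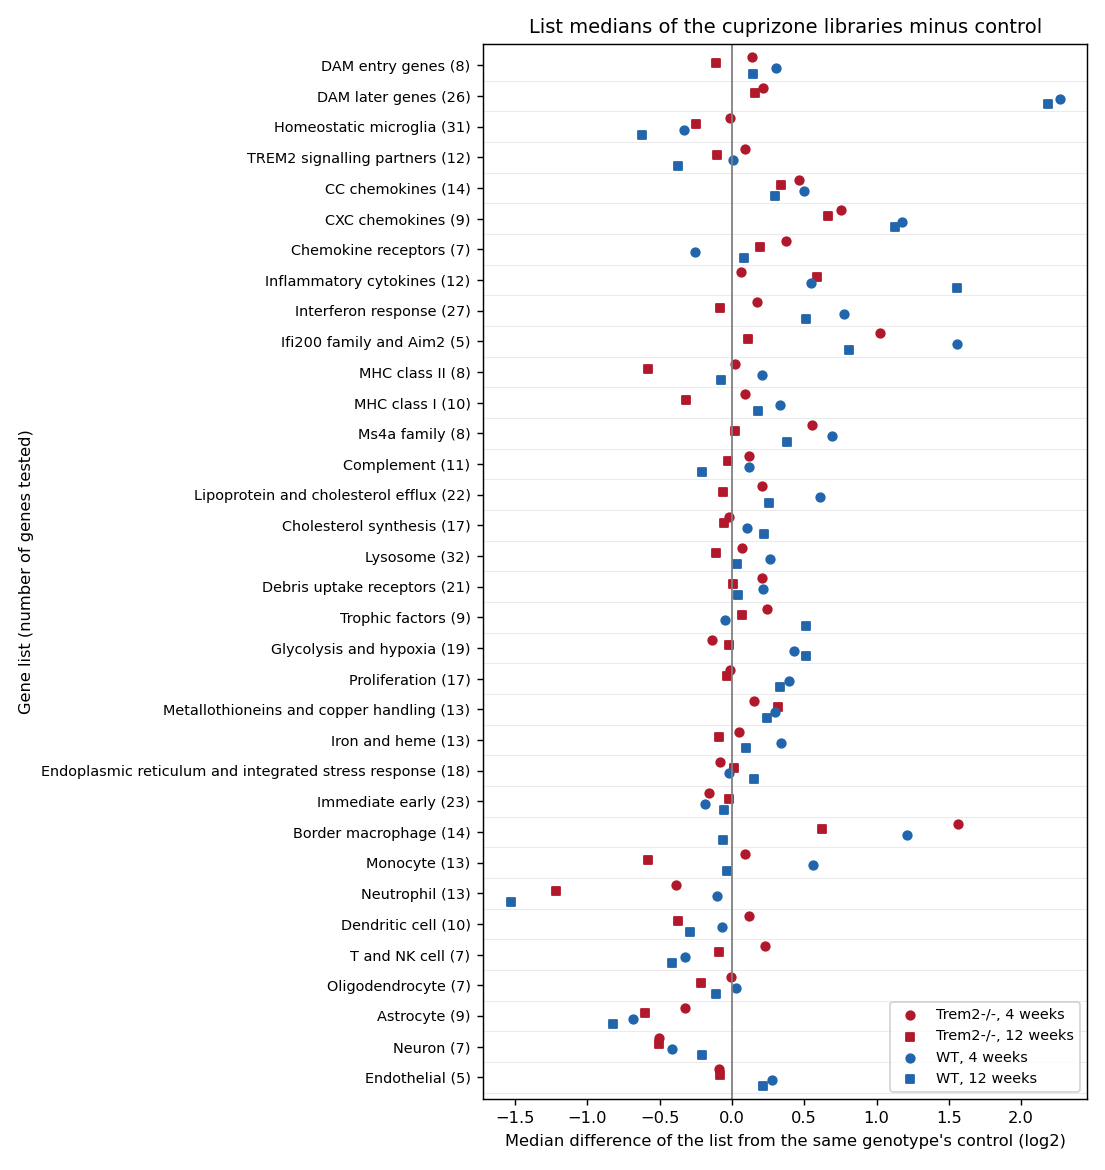
Median log2 difference from the control of the same genotype (horizontal axis) for each gene list with at least 5 genes tested (rows, number of genes in brackets); red marks Trem2-/- and blue WT, circles the 4-week and squares the 12-week library. The later DAM genes have medians of 0.21 and 0.16 in Trem2-/- cells and 2.27 and 2.19 in WT cells, and border macrophage genes have the highest 4-week Trem2-/- median, at 1.56.

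Border macrophage genes had the highest median of the lists in the 4-week Trem2-/- library. These genes mark macrophages of the meninges and vessels, which share the brain with microglia. Of 14 genes tested, 10 were at least 2-fold above control after 4 weeks and 1, Ms4a7, in both libraries. Of the 14, 12 were above control in both, against 31.3% of all genes tested. The medians were 1.56 and 0.62 in Trem2-/- cells, and 1.21 and -0.06 in WT cells. The Trem2-/- control was 0.38 lower than the WT control in the median of this list, and against the WT control the Trem2-/- medians were 1.02 and 0.11. The haemoglobin scavenger receptor Cd163 measured 7.10 and 5.86 in the Trem2-/- cuprizone libraries against 5.31 in the Trem2-/- control, and 7.34 and 5.25 against 5.77 in WT cells. The mannose receptor Mrc1 measured 9.57 and 8.67 against 8.03 in Trem2-/- cells, and 9.57 and 8.35 against 8.30 in WT cells. For both genes the 4-week libraries of the 2 genotypes were nearly equal and the 12-week libraries were closer to the controls.

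The Trem2-/- library taken after 4 weeks of cuprizone and 2 weeks of recovery had the same pattern, with a list median of 1.62 above control, against 0.54 after 12 weeks and recovery. The summed linear intensity of the 14 genes was 5028.7 after 4 weeks and 2606.6 after 12 weeks in Trem2-/- cells, against 2055.2 in the Trem2-/- control. It was 5580.8 and 2590.1 in WT cells, against 2657.4 in the WT control. None of the 14 genes had a value of 0, but no probe on these arrays did. The lowest linear intensity in the 4-week WT library, for example, was 2.22. Values above 0 therefore cannot show that a transcript was present. Clec4n, a member of this list, had a log2 intensity of 4.24 in the Trem2-/- control, below the table's median. In bulk libraries more cells of a type and more RNA per cell cannot be told apart.

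Of the 13 genes that limma called with titled duration as a block, 7 are on the border macrophage list: Pf4, Mrc1, Clec4n, Cbr2, Cd163, Cd209f and F13a1. Pf4, a platelet chemokine also made by these macrophages, differed by 1.70 ± 0.19 in that fit (adjusted p = 0.0332), Cd209f, a lectin, by 2.10 ± 0.30 (adjusted p = 0.0484) and F13a1, a clotting factor subunit, by 1.91 ± 0.28 (adjusted p = 0.0494). Without the block the limma adjusted p was 0.999 for each of the 3. The remaining calls were Ccl7, Ifi207, Cd36, the membrane protein Ms4a4a (2.08 ± 0.24, adjusted p = 0.0332), the eosinophil-drawing chemokine Ccl24 (1.66 ± 0.23, adjusted p = 0.0403) and the scaffold protein Iqgap2 (1.49 ± 0.20, adjusted p = 0.0391). Ms4a4a and Ccl24 had the time course of the border macrophage genes, with 6.15 and 4.89 against 4.29 for Ms4a4a and 8.66 and 7.54 against 6.91 for Ccl24 in Trem2-/- cells. Border macrophage genes therefore moved with these calls. Between the 12- and 4-week Trem2-/- libraries Ccl7 differed by -0.19 and Ifi207 by -0.27. On the border macrophage list, Cd163 differed by -1.24, Mrc1 by -0.90 and Ms4a7 by -0.45. The part of border macrophage genes in Ccl7 and Ifi207 was not tested.

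**Figure D4:**
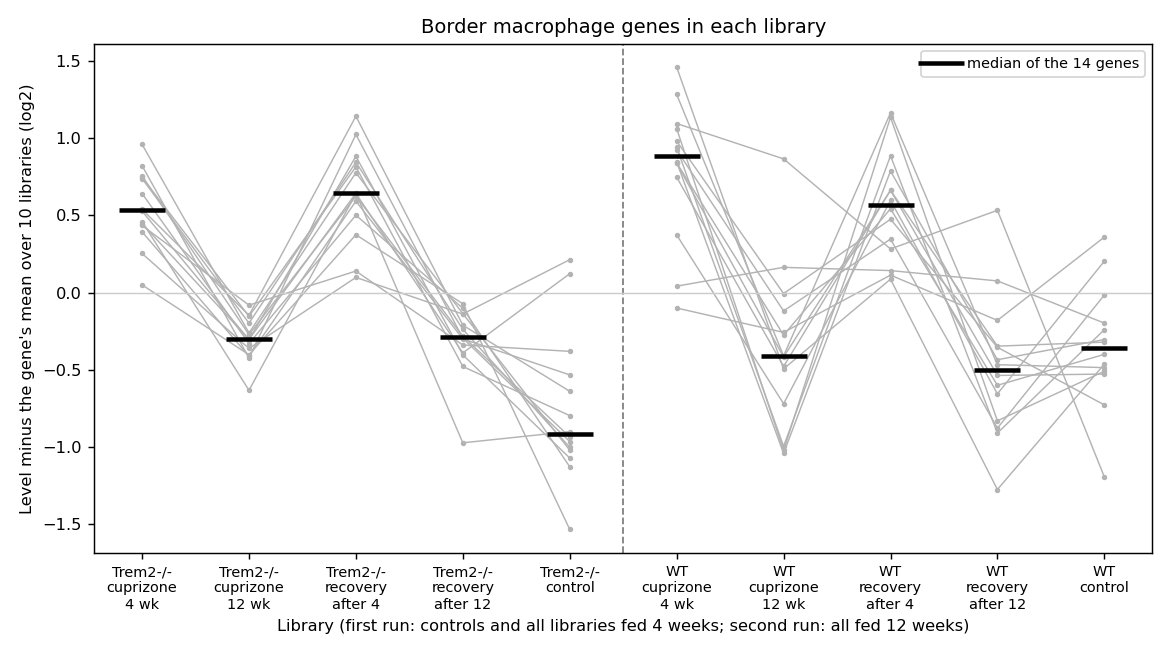
Levels of the 14 border macrophage genes in each of the 10 libraries, as log2 intensity minus the gene's mean over all libraries (vertical axis); each grey line is 1 gene and black bars are medians of the 14 genes. The 4-week cuprizone and 4-week recovery libraries lie highest in both genotypes, and the Trem2-/- control lies lowest.

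Some genes were 2-fold higher in the 4-week Trem2-/- library and not in the 12-week one. Ttr, transthyretin, the thyroid hormone carrier made by the choroid plexus, measured 9.58 in the 4-week library and 5.70 in the 12-week one, against 5.09 in the Trem2-/- control. It also measured 9.87 in the Trem2-/- and 10.95 in the WT library of 4 weeks and recovery, but 4.14 in the 4-week WT cuprizone library. Of 9 other genes of choroid plexus epithelium, chosen after Ttr was seen, none was 2-fold above the Trem2-/- control in the 4-week library. The potassium channel gene Kcnj13 had the largest positive difference, 6.06 against 5.71 in the control. Prg2, a granule protein of eosinophils, measured 5.99 in the 4-week library against 3.89 in the control, and 5.99 in the 4-week WT library. The linker histone H1f3 (5.59 against 4.17), the monocyte gene Plac8 (6.93 against 5.81), the ribosomal gene Rpl12 (6.70 against 5.70) and the interferon-inducible Ifi27l2a (9.86 against 8.06) were also at least 2-fold above control after 4 weeks. Apart from Ttr and Rpl12, these genes were at least 2-fold above control in the 4-week WT library as well.

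The 12-week library stood further from the control, with an SD of differences over genes of 0.428, and some of its genes had a like shift in other libraries of the second run. Of its 149 genes at least 2-fold higher, 57 were also at least 2-fold higher at 12 than at 4 weeks on average in the other 3 fed groups, and of its 106 lower genes 41 were lower there by as much. The share of all genes tested with such a shift was not counted. Over all genes tested, the 12-week Trem2-/- differences correlated with the shift in the other groups at 0.612 (Pearson), and the 4-week differences at -0.066. Among genes 2-fold higher at 12 weeks, the 6 with the widest gap to the 4-week library all had such a shift in the other groups. Ifnb1, interferon beta, measured 4.61 after 4 weeks and 8.49 after 12 weeks in Trem2-/- cells, against 4.24 in their control, and 10.43 in the 12-week WT library. Hbegf, a growth factor, measured 6.36 and 8.84 after 4 and 12 weeks in Trem2-/- cells against 6.80 in the control, and the antioxidant enzyme Srxn1 6.14 and 8.28 against 6.39. The small nucleolar RNA gene Snora23 (10.31 against 8.08), the microRNA gene Mir155 (6.85 against 4.83) and the helicase Dhx40 (9.500 against 7.33) behaved likewise in the 12-week library. Mean differences between 12 and 4 weeks in the other groups were 5.12 for Ifnb1, 1.73 for Hbegf and 1.98 for Srxn1.

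Among markers of other cells, S100a8 and S100a9, calcium-binding proteins of neutrophils, measured 10.97 and 10.89 in the 4-week Trem2-/- library and 6.59 and 6.26 in the 12-week library, against 11.47 and 11.38 in the control. The 12-week WT library had 5.53 and 4.41. Low values were therefore common to the 12-week libraries of both genotypes, and the part of the run in them was not tested. Neuron genes were lower in both Trem2-/- libraries, with medians of -0.50 and -0.51. Of these genes, 6 of 7 were below control in both, against 2918 of 10792 genes tested. The Trem2-/- control itself, however, was 0.36 above the WT control in the median of these 7 genes. Astrocyte genes had medians of -0.32 and -0.60 in Trem2-/- cells and -0.68 and -0.82 in WT cells.

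Outside the shared shift, 42 of the 149 genes had a difference under 0.5 between 12 and 4 weeks in the other groups. The share of all genes tested under this mark was not counted. Beside Ccl7, Ccl8, Ifi207 and Vcam1, the 42 genes included Cxcl2 and Kitl, the ligand of the receptor KIT. Kitl was picked out after its values were seen. Kitl measured 5.68 and 7.13 in the 4- and 12-week Trem2-/- libraries against 5.41 in the Trem2-/- control, and 6.01 and 6.03 against 5.82 in WT cells. The Trem2-/- recovery libraries had 6.16 after 4 weeks and 6.70 after 12 weeks of cuprizone, so both 12-week Trem2-/- libraries were at least 2-fold above the control. These differences have no test.

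**Figure D5:**
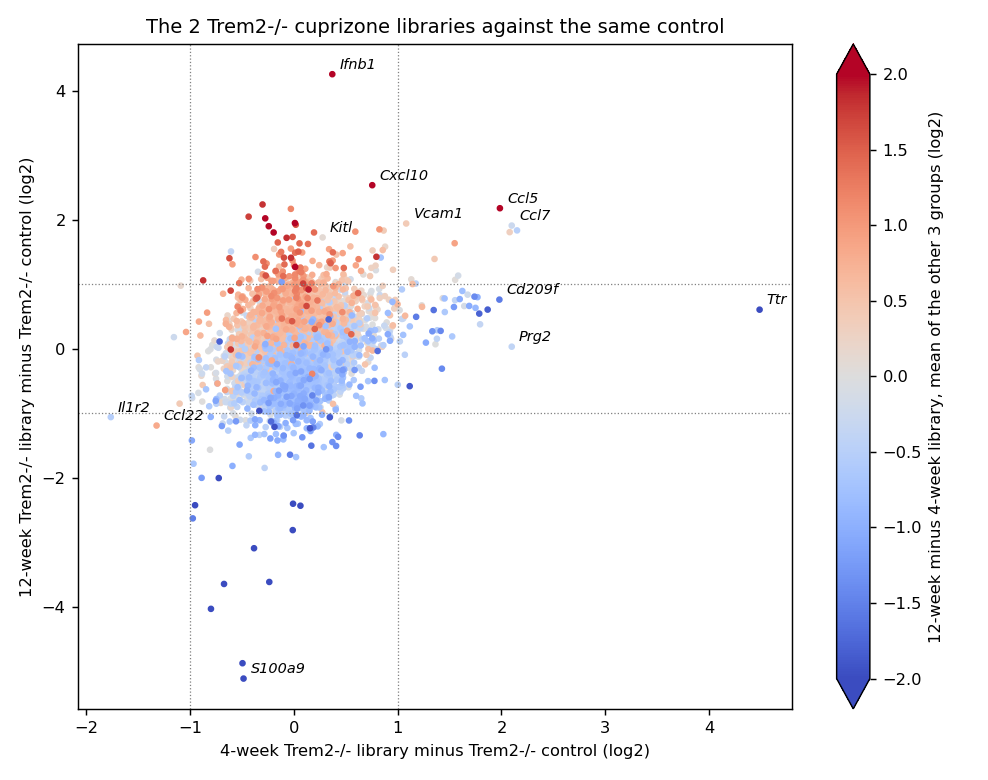
Log2 difference from the Trem2-/- control in the 12-week library (vertical axis) against the 4-week library (horizontal axis), 1 point per gene for 10792 genes; dotted lines mark 2-fold, and colour gives the mean difference between 12- and 4-week libraries in the other 3 fed groups. The genes 2-fold higher at 12 weeks alone are mostly red, and those 2-fold lower mostly blue, while Ccl7 at the upper right is pale.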

How the data were processed

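Sorted microglia were profiled on 10 microarrays, 1 library per genotype and titled condition. The deposited values are normalized linear intensities per probe, as the values themselves show (no negative value, array medians of 37.6 to 39.3), and the sources used here name neither their background correction nor their normalization. Probes naming 1 gene were kept (21259 of 24567, with 1274 naming several and 2034 unnamed), the brightest probe stood for each of 19749 genes, and log2 was taken. The 10792 genes above the table's median (5.27) on at least 2 arrays were tested with limma 3.58.1 in R 4.3.3, on 6 group means (genotype by control, cuprizone or recovery) with Benjamini-Hochberg adjustment at 0.05. The 4- and 12-week libraries of a genotype served as the 2 replicates of a group, so the spread includes feeding time. p-values measure the spread between these libraries, and nothing given here says how many animals each held. The number of arrays limits the precision.

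Genes named are the 12 higher and 2 lower in both libraries, 6 per library with the widest gap to the other, and the 15 strongest WT-induced. Also named are the 8 WT-induced genes with the largest Trem2-/- difference in the lesser of the 2 libraries, up to 4 per list, those called, and Trem2. The members and lists were chosen with earlier results of these data known. Promoters came from RefSeq (GRCm38.p6). Alternatives covered normalization, probes, filters, an offset, fold, control, a duration block and left-out libraries. The model script was tested on simulated data. Python 3.11.15, pandas 2.3.3, numpy 2.4.6 and matplotlib 3.10.9 were used.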

Additional observations from a re-analysis of the deposited data

Results flagged for a closer look

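Gpnmb was singled out because its response differed between genotypes in a test of the difference itself, at -4.57 for Trem2-/- minus WT (limma adjusted p = 0.0451). The Trem2-/- cuprizone libraries differed from their control by only -0.07 and -0.11, and the WT libraries from theirs by 4.79 and 4.16. The Trem2-/- control was 0.81 above the WT control. Against the WT control the Trem2-/- cuprizone libraries were higher, by 0.74 and 0.70, so the direction in Trem2-/- cells depended on the control.

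For further results both Trem2-/- cuprizone libraries differed from their control one way and both WT cuprizone libraries the other, which drew attention to them. Recovery libraries had no part in this choice. Ccl22 differed by -2.49 and Mmp12 by -4.16 between the Trem2-/- and WT mean responses, and neither passed the limma test of that difference. Against the WT control the 4- and 12-week Trem2-/- libraries differed by 0.09 and 0.22 for Ccl22, and by -0.13 and 0.06 for Mmp12. Among list medians, Trem2-/- minus WT was -0.59 for glycolysis and hypoxia genes, -0.23 for proliferation genes, and -0.21 for cholesterol synthesis genes, each as the median of the per-gene differences. Against the WT control, the 4- and 12-week Trem2-/- medians were 0.226 and 0.237 for proliferation genes, the direction of the WT medians. They were -0.035 and 0.02 for glycolysis and hypoxia genes, and -0.052 and 0.022 for cholesterol synthesis genes. The opposite directions of these lists thus depended on the Trem2-/- control. The 5 endothelial genes had medians of -0.09 and -0.09 in Trem2-/- cells and 0.28 and 0.21 in WT cells, while the median of their per-gene differences was 0.13, of the opposite sign. The differences of these list medians were not tested.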

How the results depend on the processing

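The count of genes called by limma in Trem2-/- cuprizone against control was 0 under every alternative run except titled duration as a block, which gave 13. For the difference between the genotype responses the count of 1 became 9 with the block, stayed 1 with the block when the 12-week Trem2-/- library was counted as 4 weeks, and became 0 after subtracting array medians, 0 with log2(intensity + 32), and 0 to 1 when 1 library was left out. Genes 2-fold higher in both libraries, 12 as reported, numbered 4 with that offset, 86 at 1.5-fold and 54 to 149 when 1 library was left out, since a single library then decided. Requiring 2-fold from both controls, an alternative chosen after seeing the data, left 5. Genes 2-fold lower in both, 2 as reported, numbered 4 with quantile normalization, 4 without a filter, 1 with a filter at 6, 0 with the offset, 9 against the WT control, 47 at 1.5-fold, 6 to 106 with 1 library left out, and 0 against both controls. The Trem2-/- median of the WT-induced genes, 0.378, was 0.364 with the mean over probes, 0.407 with the filter at 6, 0.408 with the offset, 0.399 against the WT control, 0.285 at 1.5-fold, 0.197 with the block, 0.278 to 0.368 with 1 library left out and 0.398 in the first run alone, the last chosen after seeing the data. No result turned its direction while called, which covers little, since the main fits called 0 genes and 1 gene. Among results not called, the Trem2-/- difference of Ccl22 went from -1.26 to 0.15 against the WT control. Leaving out the only Trem2-/- control gives no contrast. The titles match libraries across groups by feeding time alone, which is the block given above, and the labels carry no replicate numbers for another pairing. Levels near background, where most Ifi213, Ctla2a and Gpnmb values in Trem2-/- cells lie, limit how small a difference can be seen.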

Other observations

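MHC class II genes, which present antigen to T cells, had medians of 0.02 and -0.58 in the 4- and 12-week Trem2-/- libraries, against 0.21 and -0.07 in WT cells, and 8 of 8 genes were lower in Trem2-/- than in WT cells at each feeding time. Of these 8 genes, 2 were at least 2-fold below control in the 12-week Trem2-/- library and 0 in the 4-week one. These 2, H2-Eb1 and H2-Aa, were also lower at 12 than at 4 weeks on average in the other fed groups, by -0.74 and -0.62. The Trem2-/- control was itself 0.29 below the WT control in the median of the 8 genes. Metallothioneins and copper handling genes, listed because cuprizone binds copper, had medians of 0.15 and 0.32 in Trem2-/- cells and 0.30 and 0.24 in WT cells. Of these 13 genes, 8 were above control in both Trem2-/- libraries, against 31.3% of all genes tested. Inflammatory cytokine genes had medians of 0.06 and 0.59 in Trem2-/- cells and 0.55 and 1.56 in WT cells. Monocyte genes had medians of 0.09 and -0.58 in Trem2-/- cells and 0.56 and -0.04 in WT cells. None of the genes on these lists passed limma in Trem2-/- cuprizone against control.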
